A study of Sus scrofa with 2 samples.

Results

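Cardiac macrophage nuclei were 2187 of the 31664 nuclei kept from the left ventricles of Bama pigs, 744 of 14939 in the TG library and 1443 of 16725 in the WT library. They were chosen by counts of unique molecular identifiers (UMIs), each of which stands for one captured RNA molecule. A kept nucleus had at least 500 detected genes and at most 5% of its UMIs from the 13 mitochondrially encoded genes. A macrophage nucleus held at least 4 UMIs of CD163, F13A1, MS4A7 and MRC1 together, and these made up at least 0.15% of its UMIs. Nuclei with markers of other cells were left out: cardiomyocyte RYR2 and CTNNA3 had to stay under 1% of UMIs, and endothelial FLT1, PECAM1 and VWF and fibroblast ABCA8, COL1A1 and PDGFRA each under 0.15%. The dendritic cell genes XCR1 and FLT3 had to stay under 2 UMIs.

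The TG library came from triple-transgenic Bama pig, whose construct the study writes as PNPLA3I148M-GIPRdn-hIAPP. The WT library came from wild-type Bama pig. Both had 12 months of a diet high in fat and sucrose, so there was no group on ordinary feed, and both samples were frozen myocardium of the left ventricular free wall. Nuclei were captured by 10x Genomics 3' chemistry, and nuclear RNA was measured. The promoters of the transgenes and the number of animals behind each library are not given in the sources used here. Over whole libraries, the pig gene PNPLA3 had 73 UMIs in TG and 51 in WT, GIPR 11 in TG and 19 in WT, and IAPP 42 in TG and 11 in WT. In macrophage nuclei PNPLA3 had 3 UMIs in TG and 2 in WT, GIPR 0 in both, and IAPP 1 in TG and 0 in WT. Whether reads of the transgenes were assigned to these pig genes is not given, so the counts do not check the genotype labels.

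Macrophages are the main immune cells of the healthy heart. In mice, one population is seeded before birth and renews itself in place, with LYVE1, TIMD4 and FOLR2 as markers. Another carries CCR2 and MHC class II genes and is replenished from blood monocytes. Cardiac macrophages take up dead cells, debris and haemoglobin through scavenger receptors such as CD163 and MRC1, make complement C1q, present antigen, and secrete growth factors such as IGF1. In fat-rich tissue, macrophages with TREM2, CD9, LPL and lysosomal genes are known as lipid-associated macrophages.

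There was 1 library per genotype, so genotype and library cannot be told apart, no difference between TG and WT could be tested, and no value has a replicate check. Levels are counts summed over macrophage nuclei and scaled to 1000000 nuclear-encoded UMIs (CPM). Intervals are at 95% and cover counting error only, from the exact Poisson distribution for levels, the Clopper-Pearson method for shares and the conditional binomial distribution for ratios. The TG library held 89324966 UMIs over 15000 barcodes and the WT library 127126477 over 18251. Kept nuclei had a median of 3937 UMIs in TG and 5442 in WT, and the lowest depth among them was 1972 UMIs in TG, against 602 in WT. Macrophage nuclei had a median of 2955 UMIs and 1696 genes in TG, against 4119 UMIs and 1995 genes in WT. The libraries shared 81 barcodes, which 6 TG and 4 WT macrophage nuclei carried.

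Macrophage nuclei were a smaller share of the TG library. They made up 4.98% of kept nuclei in TG (interval 4.64 to 5.34%), against 8.63% in WT (8.21 to 9.06%), a ratio of 0.577. The share of one class moves with the shares of all others, and a nucleus count cannot tell fewer macrophages from more nuclei of other cells. In TG, 3037 nuclei met the endothelial criteria, against 1738 in WT, while 949 met the fibroblast criteria in TG, against 2215 in WT. The requirement of 4 UMIs depends on depth. Among nuclei with at least 3000 UMIs, macrophage nuclei were 3.71% in TG and 8.11% in WT, a ratio of 0.458.

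Most nuclei lay well clear of the threshold. The summed markers CD163, F13A1, MS4A7 and MRC1 reached a median of 24 UMIs per macrophage nucleus in TG and 25 in WT, or 0.777% and 0.627% of the nucleus's UMIs. Just inside the threshold, at 0.15 to 0.2%, were 53 nuclei in TG and 41 in WT. Just outside, at 0.1 to 0.15%, were 45 in TG and 64 in WT. Of the nuclei that passed on macrophage markers, 233 (23.8%) in TG and 251 (14.8%) in WT were left out for markers of another cell type, most often endothelial genes, with 117 nuclei in each library. With those nuclei put back, the shares were 6.54% in TG and 10.1% in WT. No doublet caller was run, and without the 5% of macrophage nuclei with the most UMIs the shares were 4.73% in TG and 8.19% in WT.

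**Figure D1:**
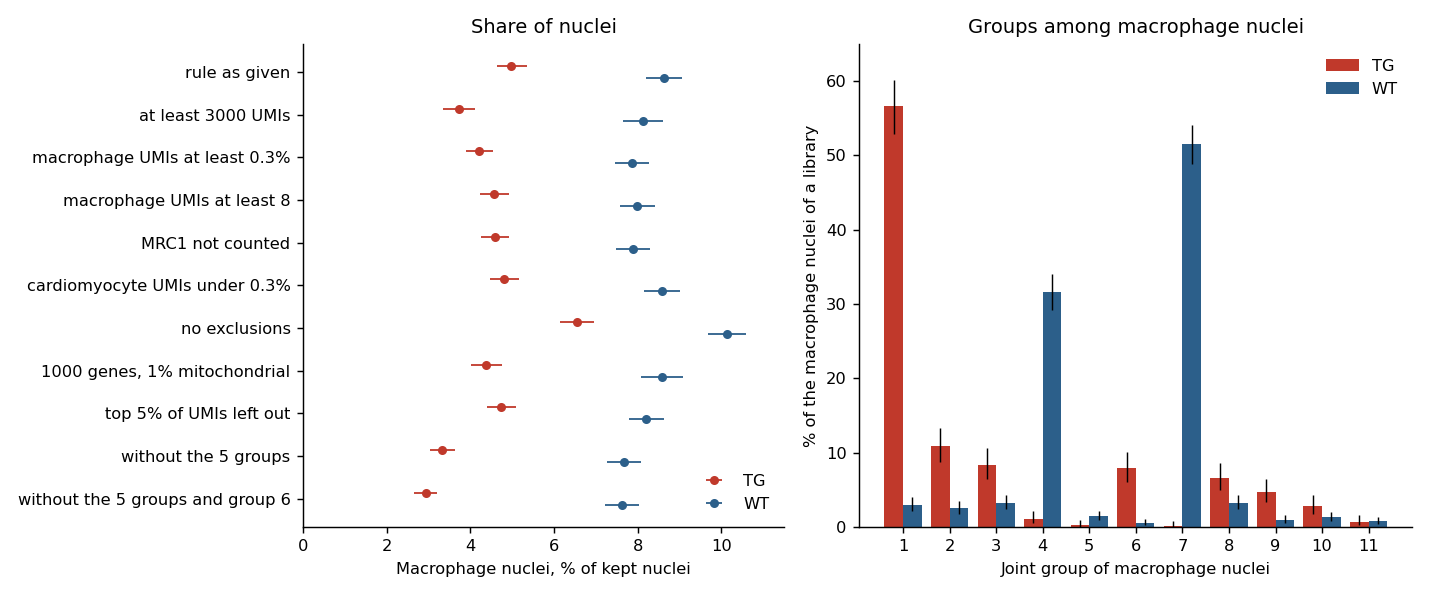
Left: macrophage nuclei as a percent of kept nuclei (x axis) in TG (red) and WT (blue) under the rule as given and 10 other settings, with 95% Clopper-Pearson bars for counting error. Right: percent of each library's macrophage nuclei (y axis) in each of 11 groups found by clustering both libraries together, with the same bars. The TG share is under the WT share in every setting shown, and groups 1, 4 and 7 each lie mostly in 1 library.

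The share plot shows that the order of the libraries was the same at every setting tried, while the ratio was between 0.384 and 0.646. Its lowest value came from leaving out groups of nuclei that carried genes of other cell types or of blood leukocytes, which are described next to the groups.

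The nuclei carried the defining macrophage genes. CD163, the haemoglobin scavenger receptor, had 3906 CPM in TG macrophage nuclei, 98.0 times the level of the other kept nuclei, and 2406 CPM in WT, 92.5 times. F13A1, the A subunit of coagulation factor XIII, had 1349 CPM in TG and 977 CPM in WT. MS4A7, a membrane protein of tissue macrophages, had 594 CPM in TG and 809 CPM in WT. These genes chose the nuclei, so their levels are a description and no evidence for the label. Of 10970 genes that had 20 or more UMIs when the macrophage nuclei of both libraries were summed, 1925 (17.5%) were at least 2 times as high in macrophage nuclei as in the other nuclei of both libraries.

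Genes outside the rule gave the same picture. BLNK, an adaptor of SYK signalling, had 486 CPM in TG macrophage nuclei, in 65.2% of them, and 944 CPM in WT, in 84.4%. Complement receptor VSIG4 had 320 CPM in TG and 418 CPM in WT, 78.2 and 85.3 times the other nuclei. The scavenger receptor MSR1 had 402 CPM in TG and 478 CPM in WT. Pattern recognition genes were among the leading 15 as well, with 269 CPM of TLR2 in TG and 348 CPM in WT, and 248 CPM of the inflammasome sensor NLRP3 in TG and 305 CPM in WT. NLRP3 did not set them apart from dendritic nuclei, which had 248 CPM in TG and 368 CPM in WT. TLR2 was lower there, with 67.1 CPM in TG and 61.6 CPM in WT. The receptor tyrosine kinase CSF1R, on whose ligand macrophages depend for survival, had 718 CPM in TG and 1000 CPM in WT. Of 16 macrophage markers, 14 were in the matrices, and their summed level was 17927 CPM in TG, against 21902 CPM in WT. That sum includes CD163, F13A1, MS4A7 and MRC1, which chose the nuclei, so it is a description and no evidence for the label.

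**Figure D2:**
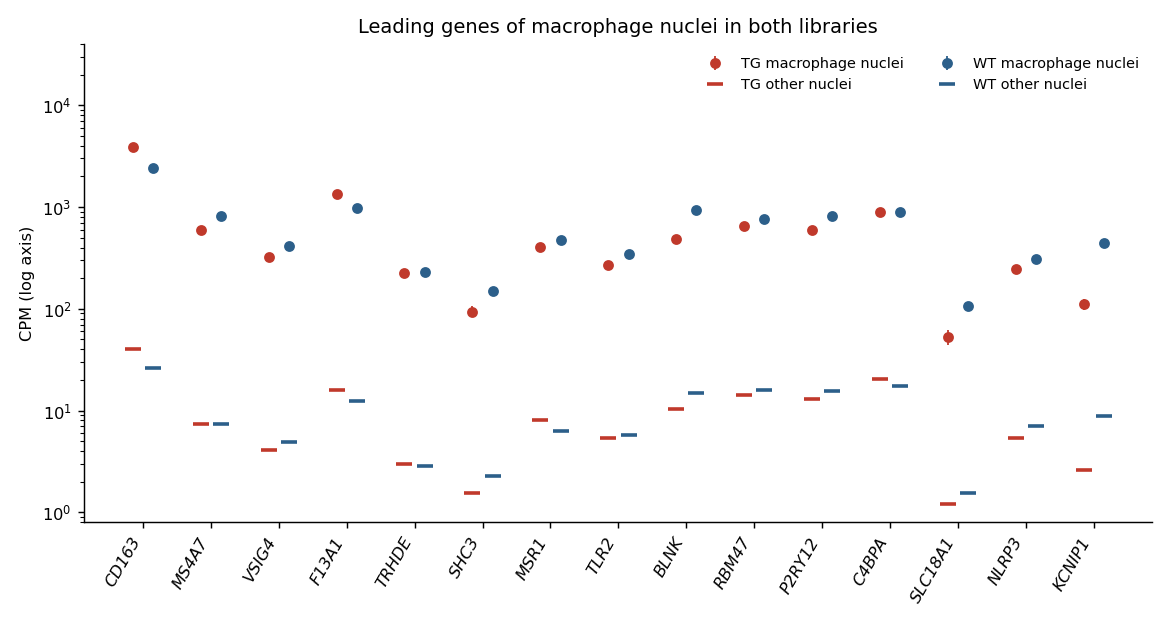
Level in CPM (log y axis) of the 15 genes, ribosomal genes aside, with the highest level over the other nuclei in both libraries (x axis), in macrophage nuclei (circles, with 95% Poisson bars) and in all other kept nuclei (dashes), for TG (red) and WT (blue). Every circle lies at least 42.5 times above its dash, and KCNIP1 has the widest gap between TG and WT.

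The plot of leading genes also holds genes less often tied to macrophages. P2RY12, an ADP receptor best known from platelets and microglia, had 600 CPM in TG and 813 CPM in WT. C4BPA, a chain of the complement inhibitor C4b-binding protein, had 900 CPM in TG and 888 CPM in WT, and TRHDE, an ectoenzyme that degrades thyrotropin-releasing hormone, 226 CPM in TG and 228 CPM in WT. For these last genes the interval of the ratio spanned 1. SLC18A1, a vesicular monoamine transporter, had 52.5 CPM in TG and 106 CPM in WT. RBM47, an RNA-binding protein, had 657 CPM in TG and 757 CPM in WT, and the adaptor SHC3 94.0 CPM in TG and 148 CPM in WT.

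Some genes used to mark other immune cells stood high in these nuclei without the defining genes of those cells. BANK1, a B-cell scaffold protein, had 1078 CPM in TG macrophage nuclei, 28.7 times the other nuclei, and 2735 CPM in WT, 41.1 times. The B-cell genes MS4A1 and CD79B had 0 UMIs in both libraries and PAX5 had 2 UMIs in TG and 8 in WT, while EBF1, with 495 CPM in TG and 233 CPM in WT, was far higher in fibroblast nuclei. MS4A2, a chain of the mast cell IgE receptor, had 189 CPM in TG and 113 CPM in WT, while HDC of histamine synthesis had 7 UMIs in TG and 10 in WT, and KIT had 19.0 CPM in TG and 6.60 CPM in WT. VWF, an endothelial gene held low by the rule, was still found in 31.3% of TG and 43.3% of WT macrophage nuclei when every nucleus was thinned to 2000 UMIs, against 8.32% of TG and 8.20% of WT cardiomyocyte nuclei. BANK1 and VWF were thus common in macrophage nuclei of both libraries at levels above those of cardiomyocyte nuclei.

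RNA of other cell types was also present, and for most types, muscle above all, more of it was found in TG. Ventricular myosin light chain MYL2 had 2114 CPM in TG macrophage nuclei and 727 CPM in WT, and myosin heavy chain MYH7 had 3441 CPM in TG and 950 CPM in WT. At 2000 UMIs, MYL2 was found in 95.6% of TG and 62.5% of WT macrophage nuclei, much as in fibroblast nuclei, with 97.2% in TG and 63.2% in WT. All 10 measured cardiomyocyte markers together reached 9096 CPM in TG and 3070 CPM in WT. Of them 8 were at least 2-fold higher in TG, among them RYR2 and CTNNA3, which the rule held under 1% of UMIs. Over all genes measured, 15.0% were that much higher in TG and 2.38% that much lower. Of 10 endothelial markers 4 were higher, with 835 CPM in TG and 719 CPM in WT in sum, and of 10 fibroblast markers 5, with 858 CPM in TG and 433 CPM in WT. Those lists hold FLT1, PECAM1 and VWF, and ABCA8, COL1A1 and PDGFRA, which the rule held low, so the rule bears on both sums. VWF alone had 200 CPM in TG and 326 CPM in WT. Of 7 pericyte markers 4 were higher (243 CPM in TG and 118 CPM in WT), as were 7 of 11 lymphocyte markers (231 CPM in TG and 116 CPM in WT). Both measured neutrophil markers were higher in TG, with a sum of 42.3 CPM in TG and 5.19 CPM in WT. Dendritic cell markers went the other way, with 1044 CPM in TG and 1968 CPM in WT and 1 of 6 lower in TG, as did B-cell and plasma cell markers, with 1621 CPM in TG and 3017 CPM in WT, most of it BANK1. The part of this RNA in the differences between TG and WT was not tested, beyond the recalculations given with the results.

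Clustering the macrophage nuclei of both libraries together gave 11 groups. Groups 2, 3, 8, 9 and 10 were led by genes of other cell types although their nuclei met the rule. Group 2, with 81 TG and 36 WT nuclei, was led by KCNN2, SLCO2A1, ADGRF5 and NOSTRIN, and its endothelial markers summed to 1746 CPM in TG and 1417 CPM in WT. Group 3, with 62 TG and 47 WT nuclei, was led by genes such as CDH19, COL6A6 and ADAMTS5, with fibroblast markers at 4671 CPM in TG and 3633 CPM in WT. Group 9, with 35 TG and 13 WT nuclei, carried NOTCH3 and GUCY1A2, and group 10, with 21 TG and 19 WT nuclei, carried KLRK1, CD3D, CD2 and LCK of T and NK cells. Group 8, with 49 TG and 47 WT nuclei, carried MMRN1, RELN and FLT4, known from lymphatic endothelium, and MRC1 made up 59.5% of its macrophage marker UMIs. Only 30.6% of its TG nuclei and 29.8% of its WT nuclei had a CD163 UMI.

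These 5 groups held 248 (33.3%) of the TG and 162 (11.2%) of the WT macrophage nuclei. They go against the label, so results are given with and without them. Without them, 496 TG and 1281 WT nuclei remained, which were 3.32% of kept nuclei in TG and 7.66% in WT, a ratio of 0.433.

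The remaining large groups split by library. Group 1 held 421 TG nuclei (56.6% of the library's macrophage nuclei) and 43 WT nuclei (2.98%). Group 7 held 1 TG nucleus and 743 WT nuclei (51.5%), and group 4 held 8 TG nuclei (1.08%) and 456 WT nuclei (31.6%). A group made almost wholly of 1 library may be that library and not a kind of macrophage, and no batch correction was applied. Macrophage markers, the genes of the rule among them, summed to 25200 CPM in the TG nuclei of group 1. They summed to 23047 CPM in the WT nuclei of group 4 and to 25285 CPM in those of group 7. Cardiomyocyte markers summed to 10314 CPM in the TG nuclei and 13920 CPM in the WT nuclei of group 1, against 3291 CPM in the WT nuclei of group 4 and 2429 CPM in those of group 7. Besides APOE, GOLM1 and FN1, the leading genes of group 1 held the muscle genes CRYAB, DES, MYH7 and TCAP.

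A small group had genes of circulating myeloid cells. Group 6 held 59 TG nuclei (7.93%) and 8 WT nuclei (0.554%) and was led by S100A8, CDA, TREML2, S100A12, TGM3 and IL1R2, with CSF3R, NRG1, S100A6, CLEC7A and S100A4 further down. The S100A8 and S100A12 proteins are abundant in neutrophils and monocytes. In its TG nuclei, CD163 had 1320 CPM and F13A1 2535 CPM, while MRC1 had 46.3 CPM and C1QA 27.0 CPM. In the TG nuclei of group 1, MRC1 had 2393 CPM and C1QA 753 CPM. Monocyte markers such as VCAN and CCR2 summed to 2933 CPM in the TG nuclei of group 6 and 2146 CPM in its WT nuclei, and the integrin subunit ITGA4 had 849 CPM in TG. Neutrophil markers summed to 301 CPM in the TG nuclei of group 6 and 520 CPM in its WT nuclei, nearly all of it CSF3R and S100A8, with MMP8 at 0, against at most 51.4 CPM in any other group.

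Smaller groups were present in both libraries. Group 5, with 2 TG and 20 WT nuclei, was led by the interferon-stimulated genes RSAD2, HERC5, CXCL10 and MX2. Group 11, with 5 TG and 11 WT nuclei, was led by mitotic genes such as TOP2A, BUB1B, KIF11 and FOXM1, and held 0.672% of TG and 0.762% of WT macrophage nuclei.

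Macrophage nuclei of both libraries divided along the same axis. In TG, clustered alone, group 1 of that clustering (173 nuclei, called here the CCR2 side) stood against its group 3 (267 nuclei, the CD209 side). In WT, group 4 (456 nuclei) stood against group 7 (743 nuclei) of the clustering of both libraries. Clustering WT alone also gave a group led by CCR2 (179 nuclei) and one with CD209 (352 nuclei), but another group of 492 nuclei had levels of these genes between theirs, with 9.09 CPM of CCR2 and 3.63 CPM of CD209. The size of the sides therefore depended on the clustering and is not compared between the libraries. Levels on a side depended on the clustering as well. The sides of TG and WT came from different clusterings, which limits every comparison of side levels between the libraries. Depth was close within a library, with medians of 2670 and 2696 UMIs in TG and 3764.5 and 4001 UMIs in WT for the CCR2 and the CD209 side. With the sides of WT taken from WT alone, all 40 genes with the clearest difference kept their direction and were past 2-fold in WT. That is no independent check, because the genes were ranked on the first sides and most nuclei were the same. Of the 179 nuclei 149 were in group 4, and of the 352 nuclei 327 were in group 7. The sides were drawn from the same counts, so their genes are a description.

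Chemokine and antigen presentation genes marked the CCR2 side. CCR2, the receptor that draws monocytes to CCL2, had 71.5 CPM on the CCR2 side and 0 CPM on the CD209 side in TG, and 52.6 and 4.16 CPM in WT. The fractalkine receptor CX3CR1 had 89.4 and 16.9 CPM on these sides in TG, and 115 and 26.9 CPM in WT. The MHC class II chain gene SLA-DQB1 had 978 and 140 CPM in TG, and 896 and 331 CPM in WT. CIITA, the master activator of MHC class II genes, had 344 and 149 CPM in TG and 542 and 221 CPM in WT, so the side with more MHC class II RNA also had more of its activator in both libraries. Complement C3 followed with 237 and 29.8 CPM in TG and 69.3 and 28.5 CPM in WT.

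The CD209 side had growth factor and receptor genes. The platelet-derived growth factor gene PDGFC had 334 CPM on the CCR2 side and 1179 CPM on the CD209 side in TG, and 304 and 1153 CPM in WT. CD209, a C-type lectin receptor, had 15.9 and 143 CPM in TG, and 1.68 and 74.9 CPM in WT. The growth hormone receptor GHR had 45.7 and 290 CPM in TG, and 44.7 and 230 CPM in WT. HSD11B1, which turns cortisone into active cortisol, had 97.4 and 411 CPM in TG, and in WT 13.4 and 113 CPM. Resident markers leaned the same way, with LYVE1 at 71.5 and 169 CPM in TG and 45.3 and 163 CPM in WT, and FOLR2 at 73.5 and 118 CPM in TG and 20.7 and 86.7 CPM in WT.

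Of 3463 genes with at least 50 CPM on a side of both libraries, 82 (2.37%) in TG and 54 (1.56%) in WT were at least 2-fold higher on the CCR2 side, and 27 genes were so in both, which was 32.9% of the TG list and 50% of the WT list. On the CD209 side 79 genes (2.28%) in TG and 41 (1.18%) in WT were past 2-fold, 28 of them in both, or 35.4% and 68.3% of the lists. No gene was past 2-fold toward opposite sides in the 2 libraries. With the sides of WT taken from WT alone, of 3524 genes 106 (3.01%) in TG and 170 (4.82%) in WT were past 2-fold toward the CCR2 side, 67 of them in both, and 78 (2.21%) in TG and 140 (3.97%) in WT toward the CD209 side, 47 of them in both, with 1 gene toward opposite sides.

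**Figure D3:**
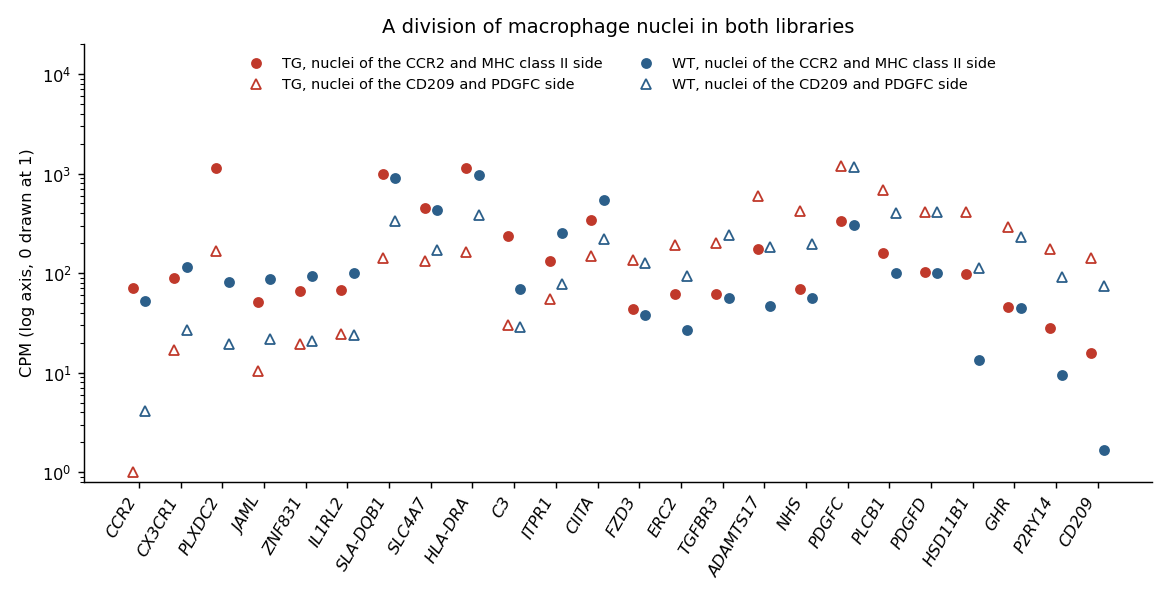
Level in CPM (log y axis, 0 drawn at 1) of 24 genes (x axis) with the clearest difference in both libraries, on the CCR2 and MHC class II side (filled circles) and the CD209 and PDGFC side (open triangles) of the macrophage nuclei, for TG clustered alone (red) and WT in groups 4 and 7 (blue). Circles lie above triangles from CCR2 to CIITA and below them from FZD3 to CD209, in both colours.

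The plot of the division puts TG and WT symbols close together for PDGFC, PDGFD, SLA-DQB1 and SLC4A7, and apart for HSD11B1 and CD209, whose levels were higher in TG on both sides. With the sides of WT taken from WT alone, the gap in CD209 was small, with 143 CPM in TG and 130 CPM in WT on the CD209 side. HSD11B1 had 411 CPM in TG and 167 CPM in WT there.

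Between the libraries, differences toward TG outnumbered those toward WT. Of 10970 genes measured in macrophage nuclei, 1643 (15.0%) were at least 2-fold higher in TG and 261 (2.38%) at least 2-fold lower, and the median log2 ratio was 0.09. The balance depended on scaling: with trimmed-mean (TMM) scaling 1280 were higher and 451 lower, and with median-of-ratios scaling 1194 and 521. These scalings put the median of all genes at -0.10 and -0.15, so a list median is read here against that of all genes. Medians between 0.08 and 0.15, those of the scavenger, complement, pattern recognition, cytokine receptor and chemokine lists, were under 0 with either scaling. With the profile of the other nuclei taken off, at a share estimated from cardiomyocyte markers (82.4% of that profile in TG and 34.5% in WT), the balance turned: 891 of 8670 genes were higher and 1986 lower. That share is a median over markers and does not hold for each. RYR2 and CTNNA3, held low by the rule, were at 0.0536 and 0.0599 times the other nuclei in TG, and 0.0119 and 0.0141 times in WT. The calculation may thus take off too much, and it takes off more in TG. Among the 1925 genes typical of macrophage nuclei in both libraries, 89 (4.62%) were higher and 83 (4.31%) lower, with a median of -0.17. Without the 5 groups led by genes of other cell types, 1254 of 9947 genes (12.6%) were higher and 311 (3.13%) lower.

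The widest difference toward TG was in APOE, the apolipoprotein that carries cholesterol out of macrophages. It had 137 CPM in TG macrophage nuclei (interval 123 to 153) and 1.57 CPM in WT (0.754 to 2.89). Its 348 UMIs in TG lay in 49 nuclei, or 6.59% of them, at 7.10 UMIs each and up to 49 in one nucleus, while its 10 UMIs in WT lay in 9 nuclei. APOE RNA was therefore plentiful in few TG nuclei and nearly absent from the rest. On the CCR2 side it had 509 CPM in TG and 0.559 CPM in WT, and on the CD209 side 1.30 CPM in TG and 2.24 CPM in WT. The ratio was 87.4 (47.0 to 184), and its log2 value of 6.38 was 6.59 without the 5 groups.

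FN1, the matrix protein fibronectin, was also a gene of few nuclei and of the CCR2 side in TG. It had 160 CPM in TG and 10.8 CPM in WT, and 102 TG and 44 WT nuclei held its UMIs. On the CCR2 side FN1 had 431 CPM in TG and 1.68 CPM in WT, and on the CD209 side 14.3 CPM in TG and 4.48 CPM in WT. Fibroblast nuclei held FN1 as well, in 49.8% of TG and 29.1% of WT nuclei thinned to 2000 UMIs, at 614 CPM in TG and 237 CPM in WT. The log2 ratio of FN1 in macrophage nuclei was 5.38 without the 5 groups, in place of 3.87. The part of fibroblast RNA in this difference was not tested.

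GOLM1 and IFI6 were spread over many nuclei. GOLM1, a Golgi membrane protein, had 187 CPM in TG and 21.1 CPM in WT, a ratio of 8.87 (7.31 to 10.8). At 2000 UMIs it was found in 27.7% of TG and 3.67% of WT macrophage nuclei, against 4.31% of TG and 4.04% of WT cardiomyocyte nuclei. Cardiomyocyte nuclei thus showed no such gap between the libraries. IFI6, an interferon-induced mitochondrial protein, had 197 CPM in TG and 24.7 CPM in WT, and at 2000 UMIs it was in 26.3% of TG and 3.51% of WT macrophage nuclei. Both sides of the division carried the difference: GOLM1 had 354 CPM in TG and 17.3 CPM in WT on the CCR2 side, and 180 CPM in TG and 11.8 CPM in WT on the CD209 side. IFI6 had 215 CPM in TG and 19.6 CPM in WT on the CCR2 side. IFI6 was higher in TG in other nuclei too, with 436 CPM in TG and 60.5 CPM in WT endothelial nuclei.

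Another set of genes higher in TG had its highest TG levels in group 6. NRG1, a ligand of ERBB receptors that acts on cardiomyocytes, had 348 CPM in TG macrophage nuclei and 25.3 CPM in WT, a ratio of 13.7 (11.6 to 16.4). In the TG nuclei of group 6 NRG1 had 2172 CPM, from 563 of its 881 UMIs, against 17.3 CPM in the TG nuclei of group 1. TGM3, a transglutaminase, had 101 CPM in TG and 1.26 CPM in WT, with 698 CPM in the TG nuclei of group 6 and 23.0 CPM in those of group 1. MAPK4, an atypical MAP kinase, had 56.5 CPM in TG and 4.40 CPM in WT, S100A6 97.2 CPM in TG and 8.33 CPM in WT, and S100A4 61.6 CPM in TG and 5.66 CPM in WT. The last 2 encode small calcium-binding proteins of motile leukocytes. Without the 5 groups and group 6, which left 437 TG and 1273 WT nuclei, the log2 ratios were 3.15 for NRG1, 5.08 for TGM3, 4.41 for MAPK4, 2.85 for S100A6 and 4.67 for S100A4, all still past 2-fold.

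The other named genes higher in TG were SLC11A1, KCND2 and MX2. SLC11A1, the phagosomal divalent metal transporter NRAMP1, had 147 CPM in TG and 20.6 CPM in WT, with 598 CPM in the TG nuclei of group 6 and 128 CPM in those of group 1. KCND2, a potassium channel subunit, had 78.2 CPM in TG and 17.0 CPM in WT, and on the CD209 side 188 CPM in TG and 17.3 CPM in WT. The antiviral GTPase MX2 had 132 CPM in TG and 31.6 CPM in WT. On the 2 sides MX2 was alike within a library, with 137 and 130 CPM in TG, and 18.4 and 23.4 CPM in WT.

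SLC30A2, a zinc transporter, was the clearest gene toward WT. It had 0 UMIs in the 744 TG macrophage nuclei, which allows up to 0.403% of nuclei with a UMI of it and sets no limit on nuclei that express it below capture, and 460 UMIs in 334 WT nuclei, or 72.3 CPM. Set against 3 UMIs summed over the TG macrophage nuclei (1.18 CPM), the floor used here for a count of 0, SLC30A2 was at least 61.0-fold lower in TG, and against the upper Poisson bound of 1.46 CPM in TG the difference is somewhat smaller. WT nuclei of the CD209 side held more of it, with 113 CPM, than those of the CCR2 side, with 25.2 CPM.

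Several genes lower in TG encode membrane and signalling proteins. C8orf34 had 41.1 CPM in TG and 443 CPM in WT, and at 2000 UMIs 4.94% of TG and 43.7% of WT macrophage nuclei held it, against 3.84% of TG and 2.59% of WT cardiomyocyte nuclei. It was not particular to macrophage nuclei, since dendritic nuclei (34 in TG and 114 in WT) had 114 CPM in TG and 2793 CPM in WT. ATRNL1, an attractin-like membrane protein, had 93.2 CPM in TG and 821 CPM in WT, and was found in 11.7% of TG and 66.4% of WT macrophage nuclei at that depth. Fibroblast nuclei held ATRNL1 alike in both libraries, 65.2% in TG and 59.2% in WT. The lysosomal cation channel MCOLN2 had 6.71 CPM in TG and 54.1 CPM in WT. The potassium channel genes KCNQ5 (76.2 CPM in TG, 345 CPM in WT) and KCNIP1 (111 CPM in TG, 447 CPM in WT) were lower in TG. So was the GTPase-activating gene ARHGAP20, with 15.8 CPM in TG and 60.7 CPM in WT. Other nuclei showed such gaps too. KCNIP1 had 107 CPM in TG and 331 CPM in WT dendritic nuclei. KCNQ5 had 54.7 CPM in TG and 681 CPM in WT fibroblast nuclei, and ARHGAP20 33.5 and 118 CPM. In nuclei with T or NK cell markers KCNQ5 was far higher, with 1604 CPM in TG and 1888 CPM in WT. The log2 ratio of ATRNL1 without the 5 groups was -4.05 in place of -3.14.

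IGF1, FTL, ABCA1, HDAC9 and SDC3 were also lower in TG. Insulin-like growth factor gene IGF1 had 171 CPM in TG (interval 155 to 188) and 513 CPM in WT (496 to 531), 3.01-fold lower in TG. On the CCR2 side it had 189 CPM in TG and 507 CPM in WT, and on the CD209 side 270 CPM in TG and 576 CPM in WT. Macrophage nuclei were not alone in this. IGF1 had 65.1 CPM in TG and 619 CPM in WT fibroblast nuclei, and 17.1 CPM in TG and 109 CPM in WT endothelial nuclei. FTL, the light chain of the iron store ferritin, had 139 CPM in TG and 418 CPM in WT, and ABCA1, which exports cholesterol to apolipoproteins, had 257 CPM in TG and 691 CPM in WT. The class IIa histone deacetylase gene HDAC9 had 1568 CPM in TG and 4163 CPM in WT, and in dendritic nuclei 1625 CPM in TG and 3475 CPM in WT. SDC3, a heparan sulphate proteoglycan, had 22.9 CPM in TG and 75.0 CPM in WT. Of these, IGF1 and ABCA1 were lower in TG on each side of the division. ABCA1 had 298 CPM in TG and 576 CPM in WT on the CCR2 side, and 276 CPM in TG and 836 CPM in WT on the CD209 side.

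**Figure D4:**
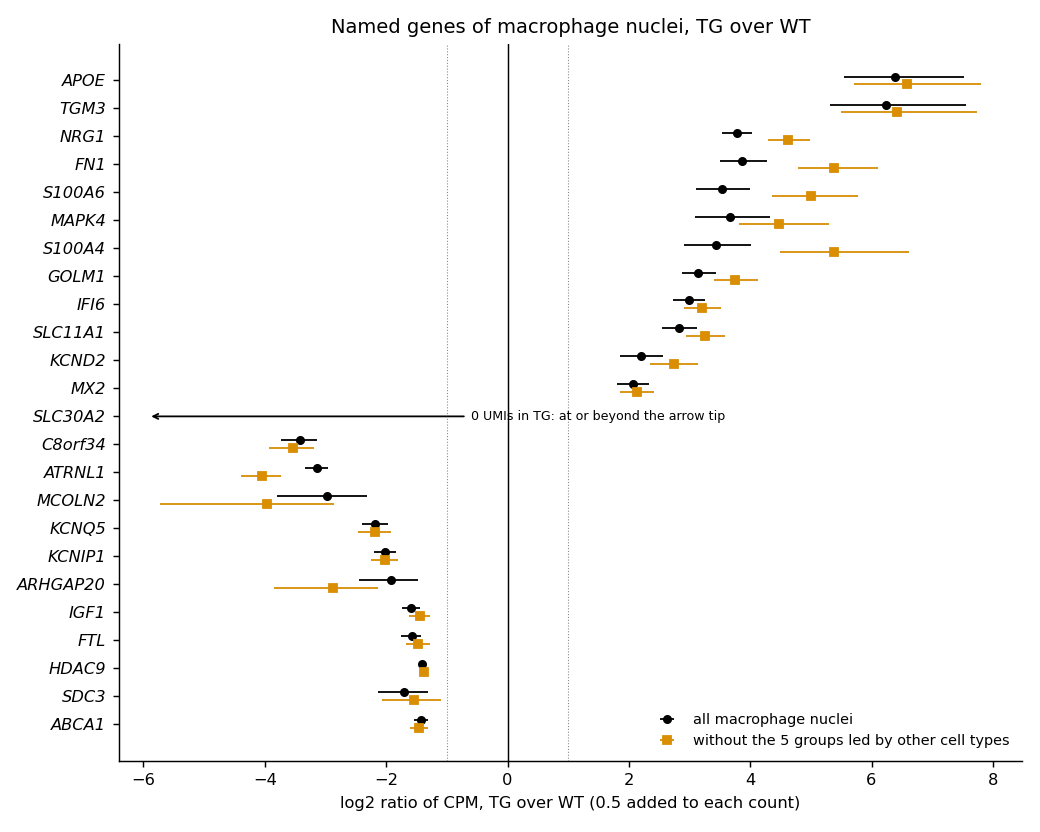
Log2 ratio of CPM, TG over WT (x axis, 0.5 added to each count), of 24 named genes (y axis) in all macrophage nuclei (black circles) and without the 5 groups led by genes of other cell types (orange squares), with 95% intervals for counting error and dotted lines at 2-fold. The arrow marks the bound for SLC30A2, which had 0 UMIs in TG. All other symbols lie outside the dotted lines.

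The plot of ratios shows that leaving out the 5 groups moved S100A4, FN1 and S100A6 most, to 5.39, 5.38 and 5.00, and turned no gene round. The shares of nuclei with a UMI gave the same directions at 2000 UMIs as at full depth, 12 of 24 genes being higher in TG both ways.

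Markers of resident macrophages did not move together. Of 15 measured genes of that list, 3 were at least 2-fold higher and 1 lower in TG, with a median log2 ratio of -0.17, against 0.09 over all genes. Of all genes, 15.0% were that much higher and 2.38% that much lower, the background for the counts of this list and those below. LYVE1, a hyaluronan receptor, had 146 CPM in TG and 141 CPM in WT, FOLR2, a folate receptor, 69.1 CPM in TG and 56.9 CPM in WT, and TIMD4, a phosphatidylserine receptor, 9.87 CPM in TG and 4.72 CPM in WT. The selenium carrier SELENOP had 732 CPM in TG and 1328 CPM in WT, and the collectin COLEC12 2040 CPM in TG and 3886 CPM in WT, both within 2-fold. The gene past 2-fold toward WT was IGF1, which was lower in fibroblast nuclei of TG as well. The median of the list was -0.13 without the 5 groups and 0.12 without group 6 as well, against 0.07 and 0.05 over all genes. Its sign also turned with RNA of the other nuclei taken off, at 0.33, a calculation limited as given above. LYVE1 is also a gene of lymphatic endothelium, and group 8 had 764 CPM of it in TG.

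MHC class II and antigen presentation genes had the lowest median of the 22 function lists, -0.38, with none of 11 past 2-fold. The invariant chain CD74 had 1365 CPM in TG and 1776 CPM in WT, SLA-DQB1 had 365 CPM in TG and 493 CPM in WT, and CIITA 184 CPM in TG and 317 CPM in WT. The costimulatory receptor gene CD86 had 132 CPM in TG and 196 CPM in WT. The sign of this median did not hold when RNA of the other nuclei was taken off, which gave 0.22 and is limited as given above.

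Genes of monocyte-derived macrophages had a median log2 ratio of 0.93. Of 13 genes 6 were past 2-fold toward TG and none toward WT, against 15.0% and 2.38% of all genes. ITGA4, which pairs in the integrin VLA-4, had 186 CPM in TG and 53.8 CPM in WT, CCR2 had 43.4 CPM in TG and 21.5 CPM in WT, and LGALS3, the lectin galectin-3, 18.2 CPM in TG and 2.99 CPM in WT. CX3CR1 went the other way, with 30.4 CPM in TG and 56.3 CPM in WT. Much of the list lay in group 6, where TG nuclei had 849 CPM of ITGA4 and 205 CPM of CCR2. Without the 5 groups the median was 1.30, and without group 6 as well it was 0.38. In that last setting 3 of 11 genes were past 2-fold toward TG and 1 toward WT, against 11.3% and 3.08% of all genes. Among nuclei with at least 1000 genes and at most 1% mitochondrial UMIs the median was 0.55. There 3 of 12 were toward TG and 2 toward WT, against 15.2% and 2.59% of all genes. Monocyte markers CCR2, S100A8 and S100A12 were the 3 of 6 past 2-fold in the separate marker list.

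Lipid-associated macrophage genes had the highest median of the 22 function lists, 1.29. Of 18 measured genes 11 were at least 2-fold higher in TG, against 15.0% of all genes. Members specific to these nuclei were TREM2 and CTSL. TREM2, a lipid-sensing receptor, had 14.2 CPM in TG and 3.14 CPM in WT, 47.1 and 33.6 times the other nuclei, and cathepsin L gene CTSL had 24.9 CPM in TG and 6.76 CPM in WT, 41.2 and 23.4 times. TREM2 was found in 3.90% of TG and 1.32% of WT macrophage nuclei, so it too was a gene of few nuclei. Cathepsin D gene CTSD had 217 CPM in TG and 82.7 CPM in WT, with 568 CPM in TG and 50.9 CPM in WT on the CCR2 side, and the lysosomal tetraspanin gene CD63 had 301 CPM in TG and 99.5 CPM in WT.

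Other members of that list were not specific to macrophage nuclei. LPL, which releases fatty acids from lipoproteins, had 171 CPM in TG and 50.9 CPM in WT macrophage nuclei, but 1026 CPM in TG and 1188 CPM in WT cardiomyocyte nuclei. The fatty acid carriers FABP4 and FABP5 had 88.9 and 211 CPM in TG and 10.1 and 41.0 CPM in WT, and were higher in endothelial nuclei, where FABP5 had 1912 CPM in TG and 987 CPM in WT. CD36, a fatty acid and oxidised lipid receptor, had 901 CPM in TG and 394 CPM in WT, but 2553 CPM in TG and 1274 CPM in WT endothelial nuclei. The share of these genes' RNA that came from macrophages was not tested. GPNMB had 58.5 CPM in TG and 34.4 CPM in WT, and lysosomal acid lipase LIPA, 212 CPM in TG and 214 CPM in WT, was level. Without the 5 groups and group 6 the median was 1.61. There 11 of 17 were past 2-fold toward TG and 1 toward WT, against 11.3% and 3.08% of all genes. In endothelial nuclei the list's median was 0.79.

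Scavenger and efferocytosis receptors had a median of 0.08, with 4 of 18 past 2-fold toward TG, against 15.0% of all genes. CD163 itself had 4903 CPM in TG and 2302 CPM in WT on the CCR2 side, and 5860 CPM in TG and 2925 CPM in WT on the CD209 side. MERTK, which binds dying cells, had 424 CPM in TG and 676 CPM in WT, and MRC1, the mannose receptor, 1736 CPM in TG and 2065 CPM in WT. CD163 and MRC1 chose the nuclei, so their levels here are a description. Of the 4 past 2-fold, CD36, OLR1 and GAS6 had lower levels in macrophage nuclei than in the other nuclei of both libraries, and TIMD4 was the exception.

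Complement genes held a median of 0.09. The C1q chains C1QA, C1QB and C1QC, made by tissue macrophages, had 509, 585 and 367 CPM in TG, and in WT 820, 847 and 665 CPM, each within 2-fold. In the TG nuclei of group 1 the C1QA level was 753 CPM. C3 was past 2-fold, with 147 CPM in TG and 55.5 CPM in WT, as was the alternative pathway protease CFD, with 453 CPM in TG and 225 CPM in WT. Fibroblast nuclei held more of both than macrophage nuclei did, with C3 at 878 CPM in TG and 801 CPM in WT.

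Pattern recognition receptors, cytokine receptors and transcription factors lay close to the background. Fc and pattern recognition receptors had a median of 0.15, with 4 of 19 higher and 1 lower in TG. The lower one was TLR8, a sensor of single-stranded RNA, at 15.8 CPM in TG and 39.6 CPM in WT. The highest ratio of that list was in the beta-glucan receptor CLEC7A, with 28 UMIs in TG and 6 in WT, whose level in the TG nuclei of group 6 was 65.6 CPM. CSF1 and cytokine receptors had a median of 0.13 with 4 of 21 higher, among them CSF3R, the granulocyte colony-stimulating factor receptor, at 19.0 CPM in TG and 3.62 CPM in WT, and IL1R2, the decoy receptor of interleukin-1, at 9.48 CPM in TG and 1.10 CPM in WT. Those receptors too were highest in group 6, where IL1R2 had 81.0 CPM in TG and where it had 0 CPM in the TG nuclei of group 1.

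The transcription factors SPI1, MAF and PPARG, central to macrophages, differed by less than 2-fold. SPI1, the PU.1 factor of myeloid cells, had 140 CPM in TG and 186 CPM in WT, MAF had 299 CPM in TG and 464 CPM in WT, and PPARG 193 CPM in TG and 176 CPM in WT. Over 30 such genes the median was -0.01, with 3 higher and 1 lower. The lower one was NFATC2, a calcium-regulated factor, with 58.5 CPM in TG and 137 CPM in WT. Among the higher ones, ID3, an inhibitor of helix-loop-helix factors, had 47.0 CPM in TG and 6.92 CPM in WT but 351 CPM in TG and 213 CPM in WT endothelial nuclei, and CEBPD had 66.0 CPM in TG and 22.0 CPM in WT.

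Chemokines and NF-kB genes showed no common direction. The chemokine list had a median of 0.08, with 5 of 16 higher and 1 lower in TG. CCL2, a chemoattractant of monocytes, had 71.1 CPM in TG and 77.0 CPM in WT, and CCL14 had 347 CPM in TG and 494 CPM in WT. CXCL12, at 64.8 CPM in TG and 8.49 CPM in WT, was higher in fibroblast nuclei, with 328 CPM in TG and 138 CPM in WT. The chemokine receptor CXCR4, 11.7 and 4.38 times the other nuclei, had 24.5 CPM in TG and 6.60 CPM in WT. Of 16 NF-kB and cytokine genes, 2 were higher and 1 lower, with a median of 0.29. The lower one was IL18, at 54.5 CPM in TG and 117 CPM in WT, while TNF, with 2 UMIs in TG and 15 in WT, was under the minimum of 20.

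Interferon response genes were higher in TG as a group, with a median of 1.12. Of 28 genes 16 were past 2-fold toward TG and none toward WT, against 15.0% and 2.38% of all genes. MX1 had 54.9 CPM in TG and 12.6 CPM in WT, OAS2, which makes oligoadenylates on sensing double-stranded RNA, 160 CPM in TG and 55.7 CPM in WT, and HERC6 206 CPM in TG and 52.0 CPM in WT. Not all members took part. IFI44L had 117 CPM in TG and 124 CPM in WT. Levels of MX1, OAS2 and HERC6 were higher in group 6 than in group 1 of TG, at 162, 324 and 448 CPM against 41.1, 135 and 153 CPM. Without the 5 groups the median was 1.08, with 14 of 27 past 2-fold, and without group 6 as well 0.74, with 9 of 27. Over all genes 12.6% and 11.3% were past 2-fold toward TG in these settings. The list was also higher in TG in endothelial nuclei, with a median of 0.91, and cardiomyocyte nuclei, with 1.11, and less so in fibroblast nuclei, with 0.18. These differences between classes were not tested.

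Growth factor genes had a median of 1.01, with 10 of 20 higher and 1, IGF1, lower in TG, against 15.0% and 2.38% of all genes. In fibroblast nuclei IGF1 was lower in TG as well. HBEGF, a ligand of the EGF receptor, was specific to macrophage nuclei at 13.1 and 4.86 times the other nuclei, and had 42.3 CPM in TG and 15.9 CPM in WT. On the CCR2 side HBEGF had 131 CPM in TG and 35.8 CPM in WT. TGFA, from the same ligand family, had 11.8 CPM in TG and 0.472 CPM in WT, with 81.0 CPM in the TG nuclei of group 6. PDGFC had 611 CPM in TG and 775 CPM in WT, PDGFB 128 CPM in TG and 219 CPM in WT, and TGFB1 80.6 CPM in TG and 92.1 CPM in WT. BMP6, FGF2, PGF and GAS6, also past 2-fold, had higher levels in fibroblast or endothelial nuclei than in macrophage nuclei of TG.

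Matrix proteases and their inhibitors had a median of 0.93, with 6 of 17 past 2-fold toward TG, against 15.0% of all genes. The metalloprotease gene ADAM28 had 22.1 CPM in TG and 3.77 CPM in WT. The inhibitor TIMP1 had 44.2 CPM in TG and 7.23 CPM in WT, and it was higher in fibroblast nuclei of TG. ADAM9, ADAM10 and ADAM17, which cut membrane proteins, were level, ADAM17 with 78.2 CPM in TG and 77.5 CPM in WT. The median of the list without the 5 groups was 0.64.

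Genes past 2-fold in either direction were found among the lipid and iron genes. Of 27 cholesterol and lipid genes, 6 were higher and 3 lower in TG, with a median of 0.41. Beside the higher APOE and the lower ABCA1, INSIG1, which holds back sterol synthesis, had 30.4 CPM in TG and 14.8 CPM in WT. FASN and SREBF1, of fatty acid synthesis and its control, had 3.16 and 7.90 CPM in TG, and in WT 8.02 and 16.2 CPM. Of 17 iron genes, 3 were higher and 1, FTL, lower, shares near those of all genes. The iron exporter SLC40A1 had 481 CPM in TG and 833 CPM in WT, and HMOX1, which breaks down haem, 28.4 CPM in TG and 33.5 CPM in WT. Of 29 lysosome and autophagy genes, only the cathepsins CTSD, CTSH and CTSL were past 2-fold, with a median of 0.25.

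**Figure D5:**
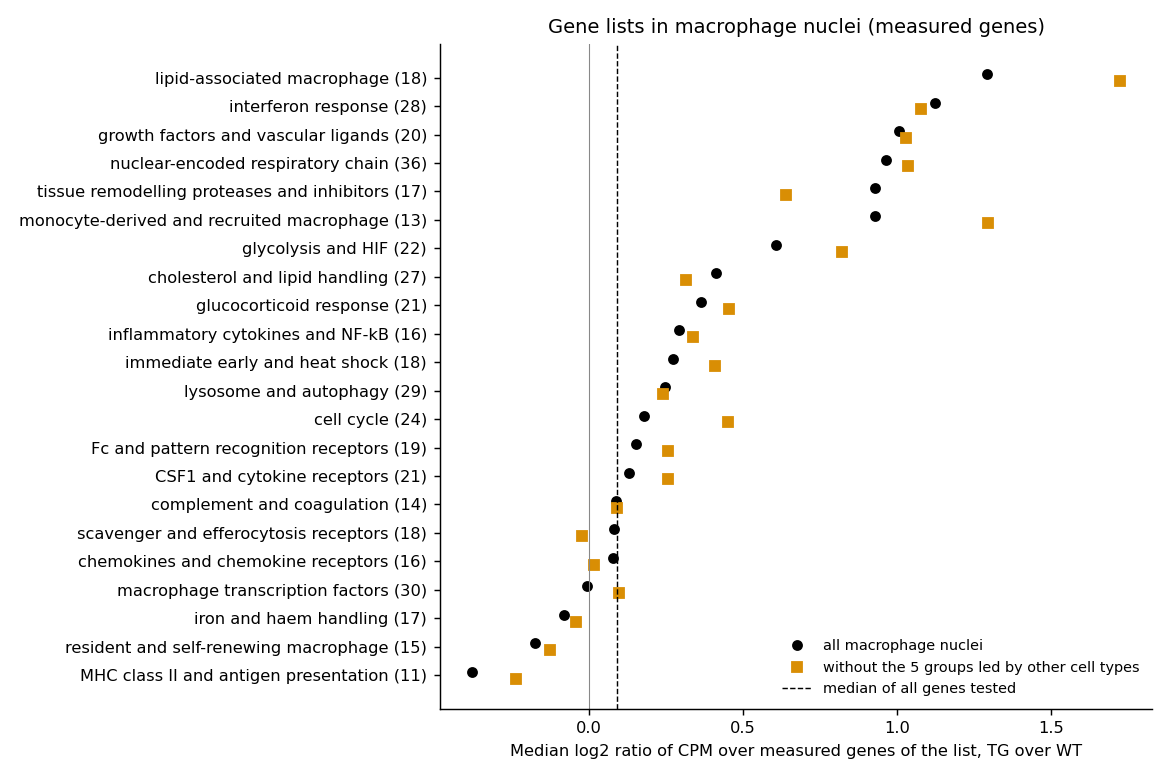
Median log2 ratio of CPM, TG over WT (x axis), over the measured genes of 22 function lists (y axis, number of genes in brackets) in all macrophage nuclei (black circles) and without the 5 groups led by genes of other cell types (orange squares). The dashed line is the median of all genes measured, 0.09. The lipid-associated list lies furthest right and the MHC class II list furthest left for both symbols.

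The plot of list medians also holds lists that are not particular to macrophages. Nuclear-encoded respiratory chain genes had a median of 0.97, with 16 of 36 past 2-fold toward TG, and summed to 4489 CPM in TG and 2211 CPM in WT macrophage nuclei. NDUFA4 had 446 CPM in TG and 136 CPM in WT. Fibroblast nuclei showed the same list at a median of 1.00, endothelial nuclei at 0.62 and cardiomyocyte nuclei at -0.18. Muscle transcripts were higher in TG macrophage nuclei as well, as given above, and their part in these medians was not tested.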

How the data were processed

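Single-nucleus RNA of 1 TG and 1 WT left ventricle sample was analysed from the deposited UMI count matrices, which hold raw counts per gene and barcode. The submitters' processing notes name Cell Ranger 3.1.0, Seurat 3.1.1 and the build Sscrofa11.1. Per the file headers the matrices were written by Cell Ranger 5.0.0. Which version made them is not settled. Genes without a symbol in the matrices were named from a reference gene table where an identifier matched (851 genes), and 14559 stayed unnamed.

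Nuclei were chosen as stated in the report, and counts were summed over them per library. Genes with a symbol and at least 20 UMIs over both libraries were compared, with 0.5 added to each count, and past 2-fold is a rule of size. Nuclei were grouped by Leiden clustering (scanpy 1.11.5, 1500 variable genes, 20 components, 15 neighbours, resolution 0.5). TMM factors came from edgeR 4.0.16 (R 4.3.3), which was used for scaling alone. Other tools were Python 3.11.15, numpy 2.4.6, scipy 1.17.1 and pandas 2.3.3. To compare shares of nuclei with a UMI, nuclei were thinned to 2000 UMIs, and 15 TG and 162 WT macrophage nuclei were too shallow. Calculations were tested on simulated data.

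Named genes were the 15 with the highest ratio to other nuclei, and the 12 highest and 12 lowest in TG by the interval bound nearest to a ratio of 1, each with at least 50 CPM and, where higher, at least 2 times the other nuclei. In each function list the members furthest from a ratio of 1 or of highest level were named, and a few others were picked after their values were seen. The members and lists were chosen with earlier results of these data known.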

Additional observations from a re-analysis of the deposited data

How the results depend on the processing

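The share of macrophage nuclei was lower in TG under every setting tried. Its ratio, 0.577 as reported, was 0.458 among nuclei with at least 3000 UMIs, 0.646 with no exclusions and 0.510 with at least 1000 genes and at most 1% mitochondrial UMIs. It was 0.433 without the 5 groups and 0.384 without group 6 as well, settings chosen after seeing the data. Against 1643 genes higher and 261 lower, 451 were lower with TMM scaling and 521 with median-of-ratios scaling. With the profile of other nuclei taken off, 891 were higher and 1986 lower, and without the 5 groups as well 789 and 2459. The median of the MHC class II list, -0.38 as reported, was 0.22 and 0.38 under these settings. Both settings take off a larger share in TG than in WT, and that share does not hold for every marker. The cause was not tested. With no minimum count 3140 genes were higher and 495 lower, with a minimum of 100 UMIs 803 and 139, and with a fold of 1.5 2731 and 913, since these settings change which genes are counted. At resolution 1 there were 18 groups in place of 11, and in WT alone 7. With the sides of WT taken from WT clustered alone, chosen after seeing the data, 67 genes in place of 27 were past 2-fold toward the CCR2 side in both libraries and 47 in place of 28 toward the CD209 side. Over named genes and alternatives, 422 log2 ratios stayed inside the interval for counting error of the gene's reported ratio, and 224 fell outside it. No paired analysis was possible because each genotype had 1 library, and for the same reason no replicate could be left out. Genes of few UMIs, such as TREM2, are limited by depth.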

Other observations

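Glucocorticoid response genes had a median log2 ratio of 0.37, with 5 of 21 at least 2-fold higher in TG macrophage nuclei and none lower. Over all genes the median was 0.09, with 15.0% that much higher and 2.38% that much lower, which is the background for both lists here. SGK1, a kinase induced by glucocorticoids, had 50.2 CPM in TG and 15.6 CPM in WT, and in the TG nuclei of group 6 it had 228 CPM. PDK4, which restrains glucose oxidation, had 111 CPM in TG and 16.0 CPM in WT macrophage nuclei, and 345 CPM in TG and 48.9 CPM in WT cardiomyocyte nuclei. FKBP5, a co-chaperone of the glucocorticoid receptor, was the most abundant of these named genes, with 1367 CPM in TG and 1062 CPM in WT. Glycolysis and HIF genes had a median of 0.61, with 5 of 22 higher in TG, and each of these 5 (PFKM, EPAS1, VEGFA, ADM and EGLN3) stood lower in macrophage nuclei than in the other nuclei of both libraries.

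Of 24 cell cycle genes, 3 were at least 2-fold higher in TG macrophage nuclei, a share below the 15.0% of all genes. The share depended on the setting. Without the 5 groups 6 of 24 were higher, against 12.6% of all genes, and without group 6 as well 9 of 24, against 11.3%. With the 5% of nuclei with the most UMIs left out, 8 of 22 were higher, against 15.5%. At 2000 UMIs it was 1 of 16, against 13.4%. Topoisomerase gene TOP2A had 6.32 CPM in TG and 2.99 CPM in WT, and the spindle checkpoint gene BUB1 5.53 CPM in TG and 1.41 CPM in WT. The group led by mitotic genes was small in both libraries, with 5 TG and 11 WT nuclei. Stress genes went both ways, with the chaperone HSPA5 at 92.0 CPM in TG and 40.9 CPM in WT and the co-chaperone DNAJB1 with 28 UMIs in TG and 179 in WT. At resolution 1, group 1 was divided, and a part of 76 TG and 10 WT nuclei was led by TCN1, APOE, FN1, TREM2 and CTSD.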
